A study of Cynara cardunculus with 36 samples.

Results

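The second week of cold storage was followed in the hearts of the globe artichoke cultivar Opal (OP) by comparing 3 libraries from day 14 with 3 libraries from day 7. These are 6 of the 36 RNA libraries of a series on the ageing of harvested artichoke heads (Cynara cardunculus var. scolymus), chosen by cultivar and day as the sample titles give them. The series covers 4 cultivars, which besides Opal are Green Queen (GQ), Imperial Star (IS) and Green Globe Improved (GGI), at day 0, day 7 and day 14, with 3 libraries in each of 12 groups. The submitters looked for genes behind rapid ageing and loss of quality. All plants, those of every group compared here included, were field-grown and given GA to bring flowering forward. All heads were also held in the cold before the first sampling, so that day 0 is not the day of harvest. The labels call the replicates biological and do not say whether a library came from 1 head or from pooled heads. The p-values therefore rest on the spread between libraries within groups, estimated over all 36 libraries, and may not speak of single heads.

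An artichoke head is an immature flower head, and the heart is its fleshy inner part. After harvest the tissue stays alive and goes on respiring without supply from the plant, and cold storage slows this. Artichoke tissue is rich in phenolic compounds such as chlorogenic acid, and their oxidation by polyphenol oxidases gives the browning that lowers its quality. The labels name browning progression as the condition followed.

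The deposited tables name gene models by ID only. Of 28632 IDs, 0 matched the RefSeq gene table of the CcrdV1.1 assembly, so the genes of browning, phenolic synthesis or cell walls could not be looked up, and the heart label could not be checked against marker genes. The results are therefore given as sets of gene models, and only 4 IDs are named, 2 for each direction.

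The libraries of the comparison were not of equal standing. The reads in genes came to between 35.5 and 47.1 M (mega) in 5 of the 6 libraries and to 5.76 M in OP day 7 replicate 1. In that library 71.0% of the listed reads lay outside gene models and 13.8% had more than 1 alignment. In the other 8 OP libraries of the 3 days these shares ran from 9.39% to 16.0% and from 2.23% to 3.14%. Its 14682 gene models with reads were fewer than its depth gives in the other libraries. Scaled down to 5.76 M reads by the exact hypergeometric expectation, the other 8 OP libraries would hold 19590 to 20480 gene models with reads. It held 425 gene models with 1 to 5 reads, against 1561 to 2247 in the other 8, although it was the shallowest. A further 4728 gene models had 0 reads in it and at least 10 reads in each of its groupmates, of which 2965 were at 1 CPM (counts per 1 M reads in genes) or more in both. The 100 gene models with the most reads took 38.4% of its reads in genes, against 19.4% and 19.7% in replicates 2 and 3. The counts of calls and the named gene models are given with and without OP day 7 replicate 1.

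**Figure D1:**
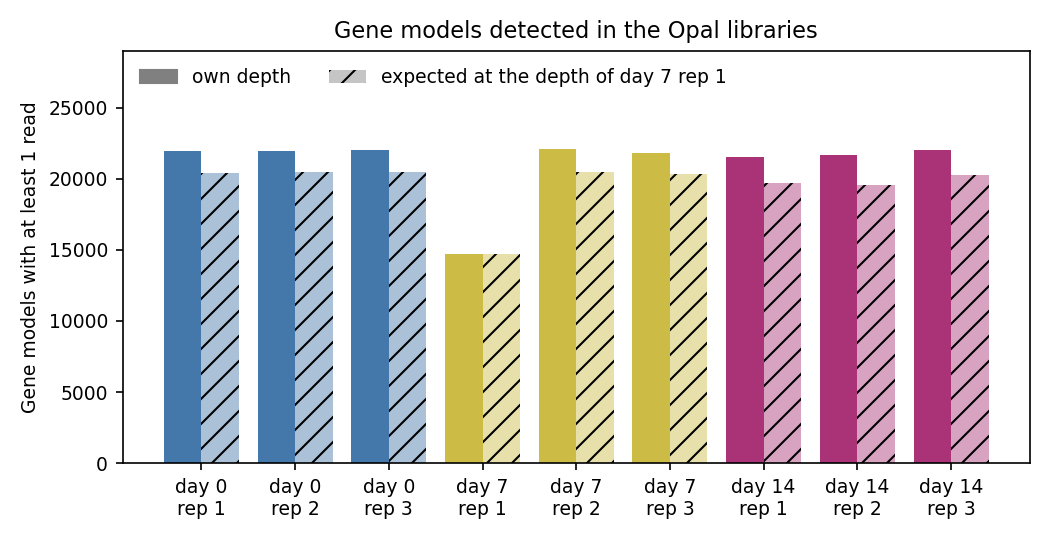
Number of gene models with at least 1 read (y axis) in each of the 9 OP libraries (x axis, by day and replicate). Solid bars give the number at the library's own depth and hatched bars the number expected at 5.76 M reads; day 7 replicate 1, at 14682, lies below the 19590 to 20480 expected of the others.

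The hearts of day 7 replicates 2 and 3 were more alike to day 0 than to day 14. Across 21900 gene models, log2 CPM of these day 7 libraries correlated with day 0 at r from 0.918 to 0.947 and with day 14 at r from 0.857 to 0.885. The day 14 libraries correlated with each other at r from 0.967 to 0.974, and day 7 replicates 2 and 3 at r = 0.958. Replicate 1 of day 7 correlated with every other OP library at r from 0.705 to 0.787. These coefficients run across gene models, which are not independent replicates, and are given as a description. On the second principal component, with 29.3% of the variance, the day 14 libraries lay at 113 to 161, the other day 7 libraries at -67.0 and -64.3 and the day 0 libraries at -125 to -87.7. The first component, with 53.0%, set day 7 replicate 1 apart at -413 from the others at 19.4 to 79.6. The median standard deviation of log2 CPM within a group was 0.237 at day 0, 0.273 at day 14 and 0.678 at day 7 (n = 3 each). Without replicate 1 the day 7 value was 0.173 (n = 2).

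**Figure D2:**
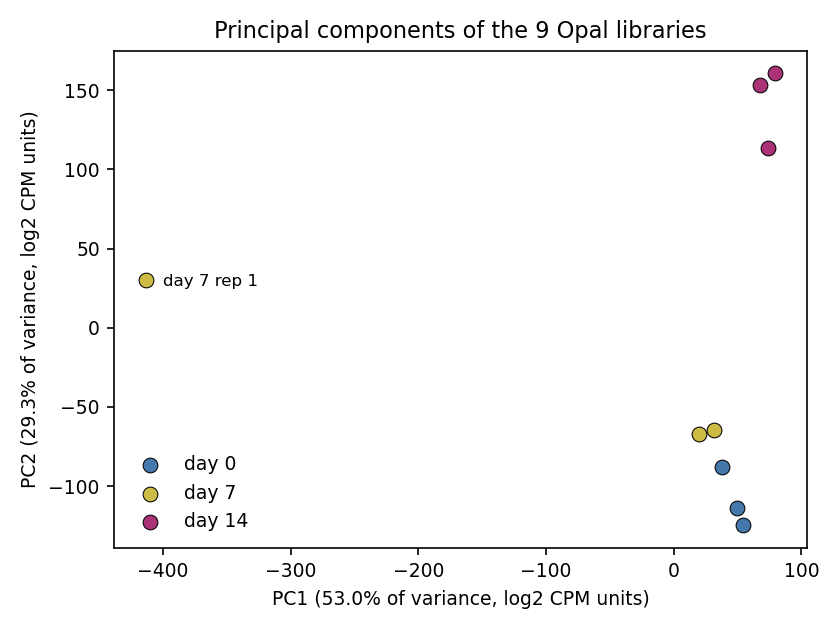
First and second principal components of log2 CPM for the 9 OP libraries, 1 point per library, coloured by day of storage. The day 14 libraries sit at 113 to 161 on the second component, above the day 0 libraries and day 7 replicates 2 and 3, while day 7 replicate 1 lies alone at -413 on the first.

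Between day 7 and day 14 27.7% of the gene models tested differed. With all libraries the test called 6061 of 21900 at an adjusted p under 0.05 (edgeR quasi-likelihood test, Benjamini-Hochberg). Of these, 3170 (14.5%) were higher at day 14 and 2891 (13.2%) were lower. Without OP day 7 replicate 1, 5134 of 22309 (23%) were called, 2784 (12.5%) higher and 2350 (10.5%) lower. The side with more calls depended on the fit. It turned to 2941 higher and 3261 lower under size factors (RLE) and 3475 higher and 4004 lower with DESeq2. With scaling and test kept it also turned with the libraries. There were 2751 higher and 2781 lower without OP day 7 replicate 2. Without the 6 libraries that stood apart, described below, there were 4129 higher and 4303 lower. In RNA from whole tissue, a loss of cells of one type and less RNA per cell cannot be told apart. Fitted to the OP day 7 and day 14 libraries alone, the count was 1701, with 1141 higher and 560 lower. Without OP day 14 replicate 2 the count was 3783. The calls of gene models that were lower moved to 1530 without OP day 14 replicate 2 and to 1920 without OP day 14 replicate 1.

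Called with the same sign both with and without OP day 7 replicate 1 were 3997 gene models (18.3%), and 0 were called with opposite signs. That is 65.9% of the calls with all libraries and 77.9% of those without the library. It holds 2331 gene models that rose, 10.6% of those tested, and 1666 that fell, 7.61%. These are the risers and fallers of the following paragraphs. The calls made only with all libraries numbered 839 higher and 1225 lower. Of the 2891 gene models called lower with all libraries, 1856 (64.2%) had their highest day 7 value in replicate 1, against 29.2% of all gene models tested. Of the 3170 called higher, 950 (30%) had 0 reads in replicate 1, against 33.2% of all tested, and 718 of these 950 were also called without it. Whether that library's shortfall of gene models accounts for the calls made only with it was not tested.

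**Figure D3:**
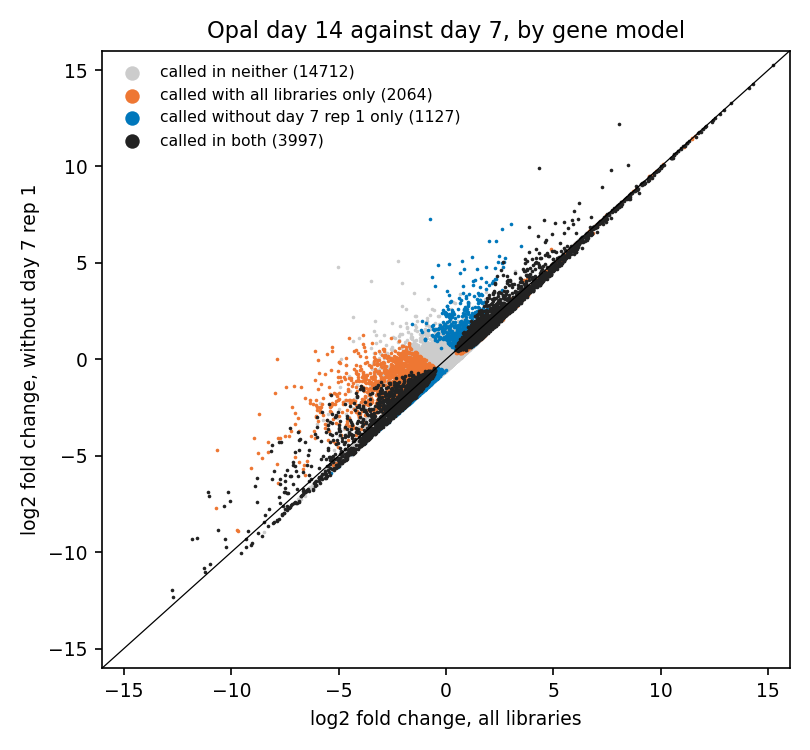
Log2 fold change of each of the 21900 gene models at day 14 against day 7, fitted with all libraries (x axis) and without day 7 replicate 1 (y axis), coloured by the calls of both fits; the line marks equal values. The 3997 gene models called in both lie along the line, and the 2064 called with all libraries only lie mostly on the side of falls.

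The library left out of the second fit was read against calls that it had not entered. Of the 2784 gene models called higher without it, 84.4% were below all 3 day 14 libraries in day 7 replicate 1, against 56% of all 22309 tested (TMM-scaled CPM). Of the 2350 called lower without it, 56.5% were above all 3 day 14 libraries, against 27.3% of all tested. Without TMM scaling these shares were 89.9% against 62% and 48.1% against 21.4%. Replicate 1 lay below day 14 for most gene models called higher without it, on both scales. Of those called lower, it lay above day 14 for 1327 of 2350 with TMM scaling and for 1130 without it. The calls were made with the same day 14 libraries, so these shares are partly given by the choice. They do not show that replicate 1 was like its groupmates.

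In 5015 gene models (22.9%) every day 14 library lay above every day 7 library, and in 2988 (13.6%) below. With day 7 replicates 2 and 3 alone, where separation is easier to meet, the counts were 6425 (29.3%) and 6724 (30.7%). Many of the changes were large. In the fit without replicate 1, 1964 of the 2331 risers had risen over 2-fold, 1141 over 4-fold and 519 over 16-fold, with a median of 3.82-fold. Of the 1666 fallers, 1482 had fallen over 2-fold, 830 over 4-fold and 302 over 16-fold, with a median log2 change of -1.99. The median log2 change of all gene models tested in that fit was -0.05. Risers and fallers were more frequent among gene models with more reads. They made up 7.62% of those at a mean under 1 CPM (111 higher, 143 lower) and 30.4% of those over 256 CPM (130 higher, 51 lower). Folds from low counts are less precise, and the part of depth in this order was not tested.

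The risers came to hold 28.4% to 34.0% of the reads in genes at day 14. Their share was 8.53% and 8.41% in day 7 replicates 2 and 3, and 4.79% in replicate 1. At day 14 it was 31.8%, 34.0% and 28.4% in replicates 1, 2 and 3. At day 0 these gene models had held 10.4%, 10.4% and 11.4%. The day 7 and day 14 shares did not overlap, and the day 0 shares lay above those of day 7. The fallers went the other way. Their share was 11.7%, 12.8% and 12.9% in day 7 replicates 1, 2 and 3, and 3.11%, 2.72% and 3.54% at day 14. At day 0 they had held 10.7%, 10.8% and 9.69%. The sets were chosen on these libraries, so the shares describe them and test nothing. Among the risers, the 10 that gained the most reads took 0.865% and 0.867% of the reads in day 7 replicates 2 and 3 and 4.63% to 6.81% at day 14.

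Within day 14, replicate 3 stood nearest to day 7, and to day 0 as well. Its r with day 7 replicates 2 and 3 was 0.877 and 0.885, against 0.857 to 0.863 for day 14 replicates 1 and 2. With the day 0 libraries its r was 0.857, 0.849 and 0.887, against 0.818 to 0.852. The risers and fallers were chosen on these libraries, so their shares here are a description. Replicate 3 had the lowest of the 3 day 14 values in 1437 of the 2331 risers, or 61.6%, against 34.1% of all gene models tested. In 913 of the 1666 fallers, or 54.8%, it had the highest value, against 33.7% of all gene models. The median level of a riser was 43.3 CPM in replicate 3, 52.1 CPM in replicate 1 and 54.3 CPM in replicate 2. At day 7 the medians were 12.8 and 12.4 CPM in replicates 2 and 3.

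The 10 gene models that held the most reads were largely exchanged in the second week, the first 100 less so. Ranked by mean CPM, which also depends on transcript lengths that are not given, 46 of the first 100 at day 7 (replicates 2 and 3) were among the first 100 at day 14. Between day 0 and day 7 the lists shared 54. Of the first 10, 7 were shared between day 0 and day 7 and 1 between day 7 and day 14. The first 100 at day 14 included 45 risers and 2 fallers, where risers were 10.6% and fallers 7.61% of all gene models tested. Of the first 100 at day 7, 16 fell.

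Gene models were named only if called in both fits and if their day 7 and day 14 libraries did not overlap. These traits of the 4 named are therefore given by the choice. The largest fitted rise among gene models with at least 10 reads in every library of the comparison was that of V2_14g007170.1.01. It stood at 9.10, 10.8 and 1.77 CPM (TMM-scaled, as are the values that follow) in day 7 replicates 1, 2 and 3. At day 14 it stood at 4496, 3356 and 1901 CPM. All day 14 libraries thus lay far above all day 7 libraries, and replicate 3 was the lowest on both days. The rise was 456-fold, a log2 change of 8.83 ± 1.25 (SE; edgeR, adjusted p = 1.78e-05), and 508-fold without day 7 replicate 1 (log2 change 8.99 ± 1.54, adjusted p = 0.000251). At day 0 it had stood at 2.35, 1.84 and 1.19 CPM. The change from day 0 to day 7 did not pass the test (log2 change 1.99 ± 0.95; edgeR, adjusted p = 0.193).

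The riser over 4-fold with the most reads at day 14 was V2_16g007950.1.01. Its day 7 levels were 1215, 3158 and 2943 CPM in replicates 1, 2 and 3, with replicate 1 the lowest. Its day 14 levels were 14190, 20455 and 8792 CPM, all above day 7. It rose 5.94-fold, a log2 change of 2.57 ± 0.46 (SE; edgeR, adjusted p = 0.000237). Without day 7 replicate 1 the rise was 4.66-fold (log2 change 2.22 ± 0.49, adjusted p = 0.00214). From 710, 1099 and 1124 CPM at day 0 it had changed by a log2 of 1.32 ± 0.44 at day 7 (edgeR, adjusted p = 0.0600), or by 1.62 ± 0.44 without replicate 1 (adjusted p = 0.0412). With mean CPM of all gene models ranked, it was first at day 14 and had been 15th at day 7.

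With all libraries the largest fitted fall was that of V2_07g006320.1.01, and both its rank and its size rest on 1 library. Without replicate 1 it ranked 30 among the 1093 falling gene models that the same rule considers. Its levels were 500.1, 12.1 and 20.3 CPM in day 7 replicates 1, 2 and 3 and 0.625, 0.830 and 1.08 CPM in day 14 replicates 1, 2 and 3. The days did not overlap with or without replicate 1, which was over an order of magnitude above its groupmates. The log2 change was -7.70 ± 1.47 (SE; edgeR, adjusted p = 0.000414) with all libraries and -4.27 ± 1.16 (adjusted p = 0.00975) without replicate 1. At day 0 the levels were 3.57, 4.87 and 3.27 CPM. A rise in the first week was called with all libraries (log2 change 5.50 ± 1.31; edgeR, adjusted p = 0.0111) and not without replicate 1 (2.03 ± 1.07, adjusted p = 0.345).

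Of the fallers over 4-fold with all libraries, V2_01g018320.1.01 had the most reads at day 7, though its fall was 3.76-fold without replicate 1. Its levels were 6527, 4554 and 4693 CPM in day 7 replicates 1, 2 and 3. At day 14 they were 1589, 1068 and 1079 CPM, all below day 7. It fell with a log2 change of -2.08 ± 0.40 (SE; edgeR, adjusted p = 0.000421), and -1.91 ± 0.41 without replicate 1 (adjusted p = 0.00175). The day 0 levels of 2621, 1878 and 2253 CPM lay between those of day 7 and day 14. The first-week rise was called with all libraries (log2 change 1.22 ± 0.39; edgeR, adjusted p = 0.0457) and not without replicate 1 (1.02 ± 0.41, adjusted p = 0.183). Day 14 against day 0 did not pass (log2 change -0.85 ± 0.38; edgeR, adjusted p = 0.102).

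**Figure D4:**
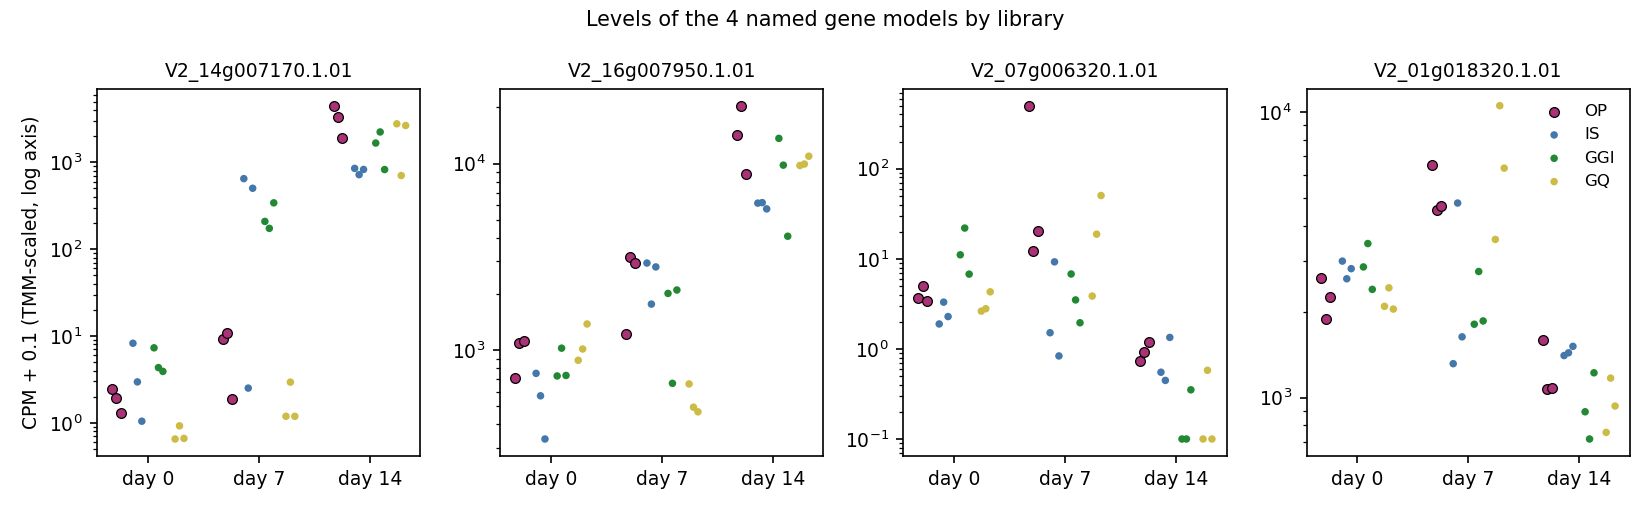
Levels of the 4 named gene models in all 36 libraries, as CPM + 0.1 on a log axis (TMM-scaled) by day, with OP points larger and outlined and the other cultivars in colour. In OP, V2_14g007170.1.01 goes from at most 10.8 CPM at day 7 to at least 1901 at day 14, and the 500.1 CPM of V2_07g006320.1.01 in day 7 replicate 1 stands apart.

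Some gene models went from no or nearly no reads to clear expression. In CPM without TMM scaling, 82 were under 0.1 in all 3 day 7 libraries and over 1 in all 3 day 14 libraries, and 85 met this without day 7 replicate 1. Of the 82, 35 had 0 reads in the 3 day 7 libraries together, and 53 were also under 0.1 CPM in all OP day 0 libraries. Their mean level at day 14 ran from 1.44 to 671 CPM with a median of 5.95. In the other cultivars, 35 of the 82 were over 1 CPM in all IS day 14 libraries, 46 in all GGI and 51 in all GQ day 14 libraries, and 28 in all 9. Of the 15811 gene models over 1 CPM in all OP day 14 libraries, 96.3%, 92.2% and 93.8% met this in IS, GGI and GQ. At day 7, 19 of the 82 were under 0.1 CPM in all IS libraries, 24 in all GGI and 49 in all GQ libraries. Of the 7338 gene models under 0.1 CPM in all OP day 7 libraries, 85.8%, 82.1% and 92% met this in IS, GGI and GQ. Both backgrounds include gene models that did not change between the days, so they are not matched to the 82. Whether the switch is particular to OP was not tested. The reverse was seen in 22 gene models, over 1 CPM in all day 7 and under 0.1 in all day 14 libraries, and in 29 without replicate 1. That number was 53 without OP day 14 replicate 3 and 39 without OP day 7 replicate 2. Of the 29, 7 had 0 reads in replicate 1, and 18 were over 1 CPM in all OP day 0 libraries. Their mean at day 7 ran from 1.11 to 95.1 CPM (replicates 2 and 3). These numbers describe the ends of the range and were not tested. A count of 0 in day 7 replicate 1 allows, at a floor of 3 counts, a level of 0.521 CPM, against 0.0637 to 0.0844 CPM in the other libraries of the comparison. The floors cover counting error only.

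Set beside the first week, the second week brought more calls in OP. From day 0 to day 7, 1881 gene models (8.59%) were called with all libraries, 1243 (5.68%) higher and 638 (2.91%) lower. Without OP day 7 replicate 1 there were 695 (3.12%), 424 (1.9%) higher and 271 (1.21%) lower. Both weeks share the day 7 libraries. The difference between the changes of the weeks was therefore tested itself, as the second-week change minus the first-week change. With all libraries 3852 gene models (17.6%) were called, 1566 (7.15%) with a more positive and 2286 (10.4%) with a more negative second week (edgeR). Without OP day 7 replicate 1 the number was 1623 (7.28%), with 784 (3.51%) and 839 (3.76%). The calls shared by both fits numbered 1279, or 33.2% of the first count and 78.8% of the second. Of these, 1079 were risers or fallers, which made up 18.3% of all gene models tested. The change from day 7 to day 14 enters both, so this overlap is partly given by the choice. Of the named gene models, V2_07g006320.1.01 (log2 difference -6.29 ± 1.77, adjusted p = 0.0300) and V2_01g018320.1.01 (-2.93 ± 0.69, adjusted p = 0.0114) were called without replicate 1 as well as with it. For V2_14g007170.1.01 the log2 difference was 6.85 ± 1.87 (edgeR, adjusted p = 0.0124) with all libraries and 7.20 ± 2.29 (adjusted p = 0.0532) without replicate 1. V2_16g007950.1.01 was not called (log2 difference 1.25 ± 0.78, adjusted p = 0.280), so its rise is not shown to differ between the weeks.

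The same week in the other cultivars, which shares no library with the OP comparison, gave fitted changes of the same sign for most of the OP risers and fallers. Of the 2331 risers, 90.7% had a fitted rise in IS, 93.2% in GGI and 91.2% in GQ, against 47.4%, 50.1% and 52.5% of all 21900 gene models. Of the 1666 fallers, 93.9%, 92.8% and 90.1% had a fitted fall, against 52.6%, 49.9% and 47.5%. The median log2 change of the risers was 0.69 in IS, 1.28 in GGI and 1.83 in GQ, and that of the fallers -0.89, -1.32 and -1.78. Over all gene models these medians were -0.02, 0.00 and 0.11. Individual calls were few in IS, where 12.8% of the risers were called higher and 9.48% of the fallers lower, beside 1.87% and 1.36% of all gene models (3.23% in all). In GGI 60% and 51.9% were called, beside 14.7% and 13.7% (28.4%). In GQ 72.6% and 67.8% were called, beside 26.6% and 22.7% (49.3%). Across all gene models the log2 changes of OP correlated with r = 0.532 for IS, 0.560 for GGI and 0.644 for GQ, and without OP day 7 replicate 1 with r = 0.545, 0.576 and 0.591, values that run over gene models and carry no test.

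Several libraries of the other cultivars also stood apart. GGI day 7 replicate 2 and GQ day 7 replicates 2 and 3 were high in reads outside gene models, and a pair of day 14 libraries went against their labels in cultivar markers. Gene models over 5 CPM in all day 0 libraries of one of these cultivars and under 0.1 CPM in all of the other numbered 10 for GGI and 19 for GQ. The library labelled GGI day 14 replicate 1 had 20% of the GGI and 89.5% of the GQ markers at 1 CPM or more, and the library labelled GQ day 14 replicate 1 had 50% and 15.8%. The other GGI libraries of days 7 and 14 had 60% to 70% and 5.26% to 15.8%, and the other GQ libraries 0% to 30% and 73.7% to 100%. Without these 5 libraries and OP day 7 replicate 1, the shares with a fitted rise among the risers were 89.7%, 92.1% and 94.3% in IS, GGI and GQ. The shares with a fitted fall among the fallers were 94.1%, 91.8% and 93.2%. In IS, 35.8% of the risers were then called higher and 43.2% of the fallers lower, beside 8.68% and 10.1% of the gene models then tested (18.7% in all). In GGI the called shares were 53.7% and 41.7%, beside 14.1% and 12.5%, and in GQ 52.3% and 52.2%, beside 13.8% and 11.3%. None of the 6 libraries left out is of IS, where the share of all gene models called went from 3.23% to 18.7%. The median log2 change in IS went from 0.69 to 0.67 for the risers and from -0.89 to -0.93 for the fallers. The tests use a spread estimated over all libraries kept, and its part in the IS calls was not tested.

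**Figure D5:**
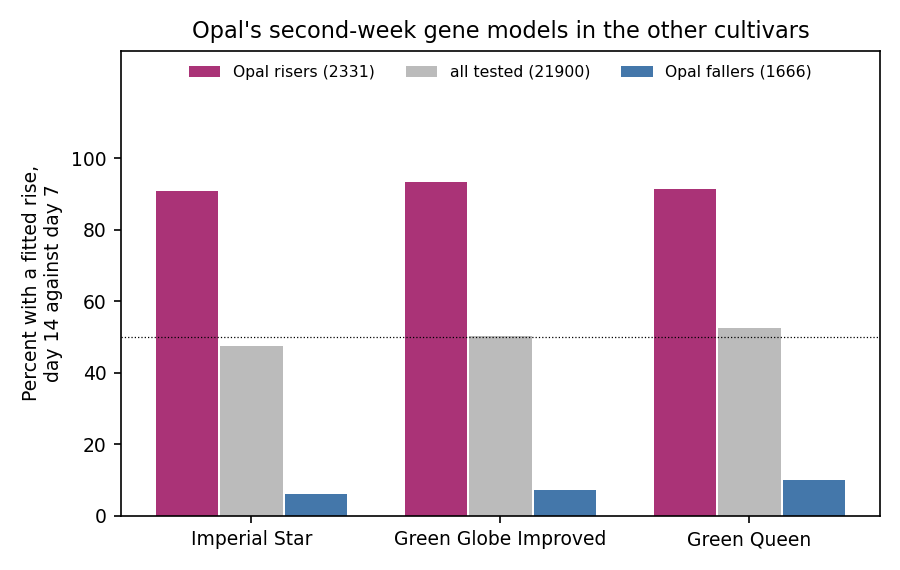
Percent of gene models with a fitted rise from day 7 to day 14 in IS, GGI and GQ (all libraries), for the 2331 OP risers, all 21900 gene models tested and the 1666 OP fallers; the dotted line marks 50%. In each cultivar the OP risers reach over 90% and the OP fallers stay under 10%, beside 47.4% to 52.5% of all gene models.

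Few gene models were shown to change differently in OP. The OP change minus the mean change of the other cultivars was called for 280 gene models (1.28%) with all libraries, 202 (0.922%) more positive and 78 (0.356%) more negative in OP (edgeR). Without OP day 7 replicate 1 it was called for 239 (1.07%), 158 (0.708%) more positive and 81 (0.363%) more negative, and 132 were called in both, 100 more positive and 32 more negative. Of those 132, 117 were also called without all 6 libraries that stood apart, where 452 (2%) were called. The count depended heavily on the fit, at 13 with the day 7 and day 14 libraries alone and 1191 with DESeq2. Single libraries moved it by over 1.5 times. It was 39 without OP day 14 replicate 1, 104 without OP day 14 replicate 2, 186 without IS day 14 replicate 1 and 174 without IS day 7 replicate 3. It was 435 without GGI day 14 replicate 3, 522 without IS day 7 replicate 2 and 955 without GQ day 7 replicate 1. At an unadjusted p under 0.05, 3445 gene models passed. None of the named gene models was called, with adjusted p from 0.0571 for V2_14g007170.1.01 to 0.987 for V2_16g007950.1.01.

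OP was also set against IS alone, the cultivar with no library high in reads outside gene models. The cultivar markers were made for GGI and GQ only, so the IS libraries were not checked by markers. The OP change minus the IS change was called for 272 gene models (1.24%), 219 (1%) more positive and 53 (0.242%) more negative. Without OP day 7 replicate 1 it was called for 174 (0.78%), 148 (0.663%) more positive and 26 (0.117%) more negative, with 137 in both. Without the 6 libraries it was called for 654 (2.89%). Leaving out any 1 of the 12 libraries moved the count to between 65 and 941, and by over 1.5 times for each but OP day 14 replicate 3, without which it was 258. Fitted to the OP and IS libraries of those days alone the count was 10. V2_14g007170.1.01 was called with a log2 difference of 7.78 ± 1.41 (edgeR, adjusted p = 0.00560), and 7.95 ± 1.61 without OP day 7 replicate 1 (adjusted p = 0.0178). In IS it had stood at 649, 2.41 and 503 CPM in day 7 replicates 1, 2 and 3, and at 852, 721 and 828 CPM at day 14. The IS libraries of day 7 thus split, with replicate 2 at the level of OP and the others near their day 14 level. In GGI it stood at 174 to 342 CPM at day 7 and 826 to 2238 CPM at day 14, and in GQ at 1.09 to 2.84 and 705 to 2779 CPM. The order of the day 14 means was OP at 3251 ± 1301, GQ at 2047 ± 1164, GGI at 1578 ± 710 and IS at 800.3 ± 69.7 CPM (SD, n = 3 each). The ranges of the cultivars overlap, except those of OP and IS. The GGI and GQ means include the replicates 1 that went against their labels, at 1668 and 2779 CPM.

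The remaining named gene models had fitted changes of the same sign in all 4 cultivars, not all of them called. V2_16g007950.1.01 was called higher at day 14 in GGI (log2 change 2.53 ± 0.46, adjusted p = 0.000397) and GQ (4.24 ± 0.50, adjusted p = 1.14e-06), while IS gave 1.27 ± 0.44 (edgeR, adjusted p = 0.105). V2_01g018320.1.01 was called lower in GGI (-1.18 ± 0.39, adjusted p = 0.0230) and GQ (-2.84 ± 0.41, adjusted p = 8.16e-06), while IS gave -0.83 ± 0.38 (edgeR, adjusted p = 0.228). Its GQ day 7 levels were 3579, 10518 and 6357 CPM in replicates 1, 2 and 3. Replicates 2 and 3 of GQ day 7 were high in reads outside gene models. V2_07g006320.1.01 stood at 0 to 0.251 CPM in GGI and 0 to 0.478 CPM in GQ at day 14, from 1.85 to 6.68 and 3.76 to 50.2 CPM at day 7. In GQ day 7 the same replicates 2 and 3 stood at 18.6 and 50.2 CPM, and replicate 1 at 3.76 CPM. The GGI and GQ values of this paragraph include the libraries that stood apart. In IS the days overlapped for V2_07g006320.1.01, at 0.735 to 9.15 CPM at day 7 and 0.347 to 1.24 CPM at day 14.

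The changes were spread over the whole set of IDs. The IDs carry a number from 1 to 17, or a scaffold name. Among the numbers, risers and fallers together made up 15.1% (number 4) to 20.2% (number 13) of the gene models tested, around the 18.3% of all. The 144 gene models tested with scaffold names had 9.03%, 6 risers and 7 fallers.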

How the data were processed

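Total RNA of artichoke hearts was sequenced in 36 libraries. The authors deposited 1 table per library of raw read counts, whole numbers that were not normalized, for 28632 gene models, and 5 summary lines that entered no library size and no test. The tools were cutadapt and STAR, per the submitters' processing notes. Their versions, the counter, build, annotation and strand setting were not given in the sources used here, so counts of near-identical, overlapping or antisense gene models are uncertain.

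Groups and replicate numbers come from the titles. Reads in genes numbered 5.76 to 54.5 M per library (median 39.6 M). Between 2 OP replicates of a day the chi-square per degree of freedom was at least 122, so each library was counted once. Library numbers 13 to 15 were the OP day 14 and 25 to 27 the OP day 7 libraries, so that library order and day cannot be told apart.

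Counts were fitted with edgeR 4.0.16 (limma 3.58.1, R 4.3.3) over all 36 libraries, with a mean per cultivar and day: filterByExpr (minimum count 10, minimum total 15), TMM, estimateDisp (biological coefficient of variation 0.506), glmQLFit with robust estimation and glmQLFTest, with a call at an adjusted p (Benjamini-Hochberg) under 0.05. A standard error is the size of the log2 change over the root of its F. From the counts CPM were derived, with a prior count of 2 for correlations and components and a pseudocount of 0.5 for the spread. DESeq2 1.42.0 was an alternative. The fit was tested on simulated data. In OP, same-numbered day 7 and day 14 libraries deviated from their group means with r of 0.100, 0.125 and 0.0634. The day 7 mean includes replicate 1, which stood apart from its groupmates, so these values say little on pairing. Between day 0 and day 14 the values were 0.321, 0.0222 and 0.166, and between day 0 and day 7 -0.0818, 0.174 and 0.00634. The labels give the replicate numbers no meaning, so same-numbered libraries were not taken as pairs.

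Named gene models were called with and without OP day 7 replicate 1, had at least 10 reads in each OP day 7 and day 14 library and days that did not overlap. Of 2560 such, those named have the largest fitted rise and fall, and the highest mean CPM at day 14 (risers) or day 7 (fallers) among changes over 4-fold. The comparison, rules and alternatives were chosen with earlier results of these data known.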

Additional observations from a re-analysis of the deposited data

Results flagged for a closer look

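The change of the second week differed from that of the first in 3852 gene models of OP (edgeR, adjusted p under 0.05), and in 1623 without OP day 7 replicate 1, a library that enters the difference with both weeks. Among the named gene models the log2 difference was 6.85 for V2_14g007170.1.01, -13.2 for V2_07g006320.1.01 and -3.30 for V2_01g018320.1.01 with all libraries. Without OP day 7 replicate 1 these were 7.20, no longer called (edgeR, adjusted p = 0.0532), -6.29 and -2.93.

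The second-week change of OP differed from the mean of the other cultivars in 280 gene models and from that of IS in 272, both by the test of the difference. V2_14g007170.1.01 differed from IS by a log2 of 7.78, with 2 of the 3 IS day 7 libraries already above 500 CPM.

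Reads that no comparison uses were abundant in OP day 7 replicate 1. The share outside gene models was 71.0%, against 10.3% to 13.7% in the OP day 0 libraries, and the share with more than 1 alignment was 13.8%, against 2.49% to 3.14%.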

How the results depend on the processing

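The count of second-week calls stayed within 1.5 times of 6061 under 11 of 14 alternatives. It was 1701 with the OP day 7 and day 14 libraries alone, where 5120 passed an unadjusted p under 0.05, and 3567 with the OP libraries alone. It was highest at 8432 without the 6 libraries that stood apart. It was 7965 without the 4 libraries high in reads outside gene models and 7479 with DESeq2. With 1 library left out it ran from 3783 to 5793. The difference between the weeks was called for 1468 gene models with the OP libraries alone and for 1623 to 3962 with 1 library left out. The difference from the other cultivars was called for 1191 with DESeq2, 13 with the day 7 and day 14 libraries alone, 452 without the 6 libraries that stood apart and 39 to 955 with 1 library left out. The difference from IS was called for 1123 with DESeq2, 10 with the OP and IS libraries of those days alone, 574 without the 4 libraries high in reads outside gene models, 654 without the 6 and 65 to 941 with 1 left out. Gene models switched on numbered 76 to 120 over all alternatives, and those switched off 15 to 53 (24 to 53 with 1 library left out). The cause of these shifts was not tested; the fits of fewer libraries have fewer samples and test fewer gene models.

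With the replicate number as a block the counts were 4955 for the second week (2978 higher, 1977 lower), 2338 for the difference between the weeks, 41 against the other cultivars and 54 against IS. Not every pair of OP day 7 and day 14 libraries correlated above 0.1, and the labels give the numbers no meaning, so the pairing is not taken as given.

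The 4 named gene models kept their direction and their call under all 14 alternatives, with adjusted p up to 0.0465. The rule that named them already asked for a call without OP day 7 replicate 1, so that alternative was met in advance. They were also picked as extremes of 2560 gene models on these libraries. The log2 change of V2_07g006320.1.01 ran from -8.25 to -4.27. Scaling by size factors moved the median log2 change of all gene models by -0.07 and DESeq2 by -0.09. The 5.76 M reads of OP day 7 replicate 1 limit what can be said of gene models with few reads in that library.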
